A study of Mus musculus with 14 samples.

Results

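The replication-dependent histone genes were taken as all genes whose GENCODE vM21 mouse symbol begins with Hist1h, Hist2h, Hist3h or Hist4h. Of 70 such symbols in the annotation, 68 were found in the 3 expression tables, among 51626 gene symbols in all, and 76 of their 78 annotated transcripts. Hist1h2bh and Hist1h2bm were not analysed here. The 68 genes comprised 6 of the linker histone H1 and, of the core histones, 20 of H2A, 17 of H2B, 12 of H3 and 13 of H4. Their values were followed across 14 libraries of mouse cortex at postnatal day 0.5, given as FPKM (sequenced fragments scaled to transcript length and library size, so a level per length) and summed over the transcripts of a gene. Frontal cortex, labelled rostral cortex as its tissue, gave polyA RNA libraries from 4 wild type (WT) C57BL6/J mice and 4 conditional knockouts (cKO). The cKO mice carry Auts2 with exon 15 flanked by loxP sites on both copies and a Cre recombinase driven from Emx1, a gene of the progenitors of cortical excitatory neurons, so other cells of the tissue keep Auts2. Cortex of wild type C57BL6/J mice, with 2 neonates pooled for each replicate, gave total RNA libraries in matched trios A and B. Each trio holds RNA immunoprecipitated (RIP) with an antibody to the C-terminal part of AUTS2, RNA pulled down with control IgG, and 10% input.

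Chromatin is built from nucleosomes, in which DNA winds around a core of H2A, H2B, H3 and H4, and H1 binds the linker DNA between them. Replication-dependent histone genes lie in clusters, mostly lack introns and are transcribed in S phase, when new DNA has to be packaged. Their mRNAs are known to end in a conserved stem-loop, bound by the stem-loop binding protein SLBP and formed by cleavage with the U7 small nuclear ribonucleoprotein, in place of a polyA tail. Some of these genes are also known to give polyadenylated transcripts. Neurons of the newborn cortex have left the cell cycle, while progenitors and glial precursors still divide.

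The genes lie in 4 groups of the GRCm38 genome: 54 Hist1 genes on chromosome 13, 10 Hist2 genes on chromosome 3, 3 Hist3 genes on chromosome 11 and Hist4h4 on chromosome 6. Of the 68 gene models used, 65 had a single exon, and Hist1h2aj, Hist1h2al and Hist3h2bb-ps were annotated as pseudogenes. A motif of 16 letters was searched in each transcript after the coding sequence. It reads GGNNCT for the first arm of the stem, TTTN for the loop and AGNNCC for the second arm, joined without a gap. It was found in sense direction in 42 of the 68 genes. Over all 141767 transcripts of the annotation, searched over their whole length, 0.0875% held it in sense and 0.0466% in antisense direction. Among the genes without it, the models of most stop at or near the stop codon and leave little or no sequence to search, and 3 are the pseudogenes, which have no annotated coding sequence and were searched whole. The sites below show the 6 cores found and 2 genes that share the commonest core, 5′ to 3′ in the sense direction, with the 16-base match in capitals and up to 5 flanking bases in lower case.
Hist1h1e: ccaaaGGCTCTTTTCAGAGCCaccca
Hist3h2ba: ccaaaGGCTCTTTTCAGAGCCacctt
Hist1h3c: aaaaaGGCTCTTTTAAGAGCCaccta
Hist2h2ac: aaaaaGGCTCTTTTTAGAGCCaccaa
Hist1h4d: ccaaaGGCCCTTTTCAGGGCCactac
Hist1h4i: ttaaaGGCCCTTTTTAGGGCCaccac
Hist1h4b: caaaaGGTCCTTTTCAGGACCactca

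Hist1h1e has its site at chr13:23621777-23621802 on the minus strand and Hist3h2ba at chr11:58949344-58949369 on the plus strand. Hist1h3c has it at chr13:23745042-23745067 (minus), Hist2h2ac at chr3:96220413-96220438 (minus), Hist1h4d at chr13:23581945-23581970 (plus), Hist1h4i at chr13:22040961-22040986 (minus) and Hist1h4b at chr13:23757361-23757386 (plus). All 7 sites lie in the exonic sequence after the coding sequence. The core of Hist1h1e was shared by 24 genes of H1, H2A, H2B and H3, that of Hist1h3c by 6 genes of H1, H2B and H3, and that of Hist2h2ac was found in this gene alone. The H4 genes had cores of their own: that of Hist1h4d in 7 genes, that of Hist1h4i also in Hist2h4, and that of Hist1h4b also in Hist1h4j. Among the 68 genes no H4 core occurred in another class.

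These genes are near copies of each other, which bears on each single value below. In 52 of the 68 models over 50% of the 50-base windows of the coding sequence were also found in another gene, in 13 all windows were, and in Hist1h1a, Hist1h1b, Hist1h1t, Hist2h2be and Hist4h4 none was. All 20 H2A models overlapped an annotated gene on the opposite strand, and Hist1h1e overlapped Gm11398 and a long Hist1h2be model on its own strand. The sources used here do not say how reads that fit several copies were assigned or whether strand was used, so values of single members are uncertain where copies share sequence. Read counts are not given either, so the depth of each library and its counting error are unknown. Within the frontal cortex set, WT 1 and WT 2 correlated at 0.993 with each other across genes and at 0.980 to 0.987 with the other libraries, and cKO 1 at 0.980 to 0.986 with all. In the pull-down r was 0.972 between the RIP libraries, 0.921 between the IgG and 0.920 between the input libraries. Neuronal markers were present in every library: 10 genes of cortical neurons summed to 953 to 1391 FPKM, 7 of red blood cells to 18.9 to 77.3 FPKM and 8 of microglia to 15.0 to 28.1 FPKM. Auts2 was lower in the cKO than in WT (log2 fold change -1.13, adjusted p = 0.0237, limma).

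Most histone genes were at or near 0 in polyA RNA and stood higher in total RNA, with exceptions led by Hist3h2ba. Summed over the 68 genes, they stood at 74.6, 91.9, 74.5 and 67.4 FPKM in WT 1 to 4 and at 89.5, 72.2, 61.5 and 72.9 FPKM in cKO 1 to 4. In total RNA the sum was 1845 and 1844 FPKM in input A and B, 1893 and 2055 FPKM in IgG and 3439 and 3244 FPKM in RIP (table with IgG). As a share of a library's summed FPKM this was 0.0183% to 0.0272% in polyA RNA, 0.602% and 0.584% in input, 0.667% and 0.733% in IgG, and 1.12% and 1.06% in RIP. All 6 total RNA libraries were thus far above all 8 polyA libraries. The library types also differ in the kit, the piece of cortex and the animals, and were scaled in separate tables, so that their part in this gap cannot be told apart and no test was made.

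**Figure D1:**
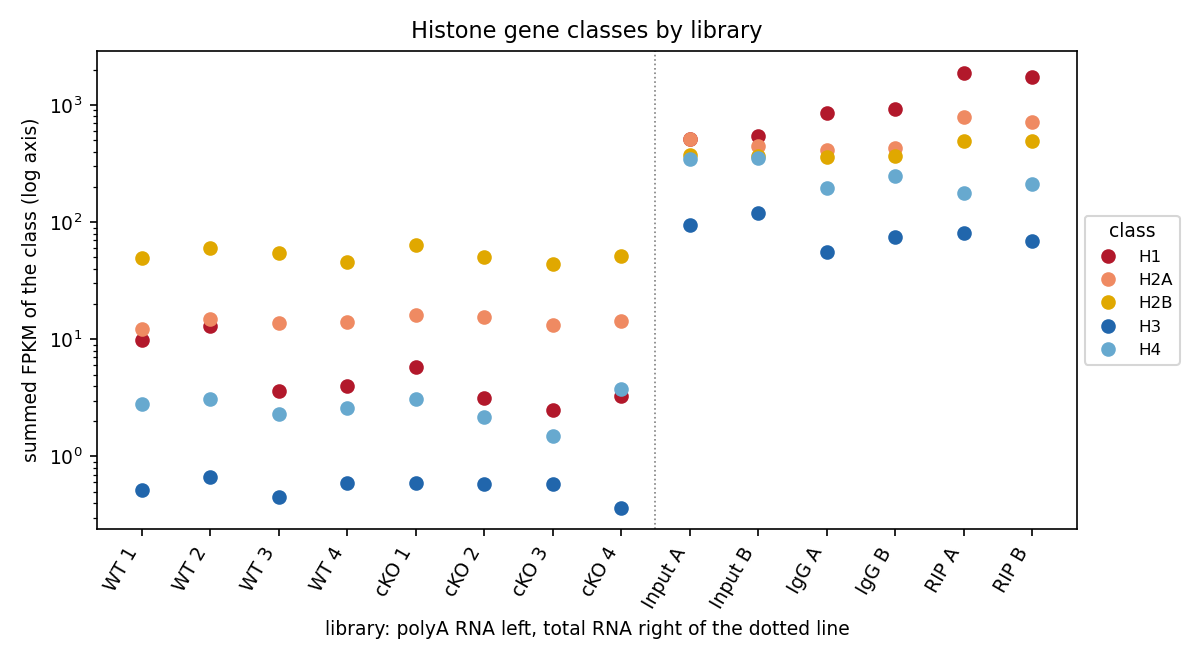
Summed FPKM of each histone class (y axis, log scale) in each of the 14 libraries (x axis), with polyA RNA of frontal cortex left and total RNA of the pull-down right of the dotted line; each point is a library, and the RIP points are from the table with IgG. All classes stand higher in each total RNA library than in any polyA library, and H1 is the highest class in RIP, at 1898 and 1755 FPKM.

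The classes differed in order between the library types. H2B led in polyA RNA, with a WT mean of 52.5 ± 6.17 FPKM (SD, n = 4), ahead of H2A at 13.7 ± 1.10, H1 at 7.62 ± 4.57, H4 at 2.70 ± 0.35 and H3 at 0.556 ± 0.095 FPKM. The cKO libraries had the same order, save for cKO 4, where H4 (3.77 FPKM) was above H1 (3.28 FPKM). In WT a single gene made up most of the sum in H2B (Hist3h2ba, 43.0 FPKM), H2A (Hist3h2a, 13.2 FPKM) and H1 (Hist1h1c, 7.44 FPKM). The median gene of each class stood at 0.0077 to 0.0662 FPKM. In the input libraries H1 came first, at 515 and 548 FPKM, then H2A at 514 and 452, H2B at 372 and 370, H4 at 349 and 355, and H3 at 95.4 and 120 FPKM. H1 and H2A were level in input A and H2B and H4 lay close in both libraries, while H2A stood above H2B and H3 below all in both. The H3 members gave little of the H3-encoding RNA in the polyA libraries, 0.059% to 0.105% of the FPKM of these genes and the replacement variants together, against 32.7% to 36.1% in input. For H1 the share was 3.42% to 9.92% against 84.6% to 86.8%, and for H2A 4.44% to 5.53% against 72.9% to 75.6%.

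In polyA RNA 6 of the 68 genes reached a mean of 1 FPKM over the 8 libraries, and 18 were listed at 0 in all 8. An exact 0 can be a failed estimate. The 6 genes took 94.6% to 96.7% of the summed histone FPKM of a library. Hist3h2ba, an H2B gene of the chromosome 11 group whose site is printed above, alone took 53.1% to 62.3%. It stood at 39.6, 48.9, 46.4 and 37.2 FPKM in WT and at 55.2, 42.9, 36.7 and 44.4 FPKM in cKO. In input it was at 37.7 and 44.5 FPKM, within the range of the polyA libraries. Its neighbour Hist3h2a, an H2A gene, stood at 11.9 to 15.8 FPKM in polyA RNA and at 30.7 and 28.7 FPKM in input. It shares all its coding windows with other genes and overlaps Trim17 on the same strand, which stood at 0.570 ± 0.149 FPKM in WT.

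Hist1h1c, an H1 gene, had a mean of 5.50 FPKM in polyA RNA (2.44 to 12.7 FPKM) and stood at 64.1 and 74.7 FPKM in input. The H2B gene Hist1h2bc followed with 4.53 FPKM, against 24.6 and 21.5 FPKM in input. Hist2h2be, another H2B gene, was at 2.38 to 3.50 FPKM in the polyA libraries and at 1.73 and 0.824 FPKM in input, the lower level being in total RNA. The H4 gene Hist1h4i was at 0.905 to 2.14 FPKM in polyA RNA and at 2.33 and 0.989 FPKM in input, so its ranges overlap. The next gene under 1 FPKM was the pseudogene Hist3h2bb-ps, at 0.407 FPKM on average.

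In the input libraries 60 of the 68 genes had a mean of at least 1 FPKM and 39 of at least 10 FPKM, with a median of 11.3 FPKM against 0.0224 FPKM in polyA RNA. For 60 of 68 genes the input mean was above the polyA mean. The gap in FPKM was largest for Hist1h1e, which encodes a main H1 subtype of somatic cells. It was at 0 to 0.0737 FPKM in polyA RNA, where its rank by level among all genes was 18863 to 21476, and at 314 and 312 FPKM in input. Hist1h4d stood at 0 to 0.510 FPKM in polyA RNA and 158 and 143 FPKM in input, and Hist2h2bb at 0 in all 8 polyA libraries and 119 and 108 FPKM in input. The testis genes Hist1h1t and Hist1h2aa were listed at 0 in all polyA and input libraries.

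**Figure D2:**
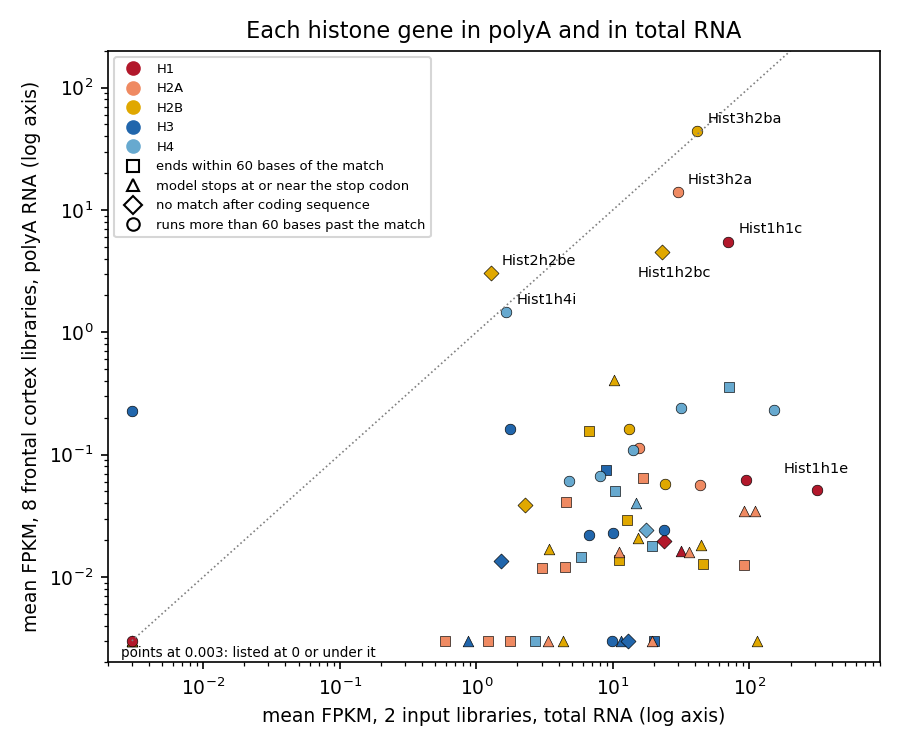
Mean FPKM of each of the 68 genes in the 8 polyA RNA libraries (y axis, log scale) against the mean of the 2 input libraries of total RNA (x axis, log scale); colour gives the class and shape the end of the annotated model, the dotted line marks equal values and genes at or near 0 sit on the edge. Of the 68 genes 60 lie below the line, and the 6 genes of at least 1 FPKM in polyA RNA are named with Hist1h1e.

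The annotated ends of the 6 genes seen in polyA RNA were compared with those of the others, as a description. Of the 68 models, 22 run more than 60 bases past the stem-loop match, 19 end within 60 bases of it, 20 stop at or near the stop codon (the 3 pseudogenes counted among them) and 7 hold sequence past the stop codon without a match. Hist3h2ba, Hist3h2a, Hist1h1c and Hist1h4i are among the 22, running 169, 1643, 840 and 330 bases past it. Hist1h2bc and Hist2h2be are among the 7, and none of the 6 is among the 39 with shorter ends. The polyadenylation signal AATAAA lies in the last 50 bases of 12 of the 68 models, and of Hist3h2ba, Hist3h2a, Hist1h1c and Hist2h2be among the 6. Over all transcripts of the annotation 26.6% hold it there, and 40.5% of protein-coding ones. The median over the 12 was 0.111 FPKM in polyA RNA and over the other 56 it was 0.0174 FPKM, while in input they were 11.1 and 11.3 FPKM. Genes with long models and the signal were also low: of the 9 models with both, 3 reached 1 FPKM.

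No histone gene differed between the cKO and WT by the test. The comparison asks which transcripts depend on Auts2 in frontal cortex, and it could test 6 of the 68 genes, those with a mean of at least 1 FPKM, of which 0 passed (limma on log2(FPKM + 1), Benjamini-Hochberg adjusted over 12786 genes at 0.05). Over all genes 3 passed, 0.0235%, of which 0.00782% were higher and 0.0156% lower. At an unadjusted p under 0.05 (limma) there were 2 of the 6, beside 7.91% of all genes. Hist1h1c stood at 9.67, 12.7, 3.63 and 3.79 FPKM in WT 1 to 4 and at 5.52, 3.06, 2.44 and 3.21 FPKM in cKO 1 to 4. The log2 value was -0.77 (SE 0.32, adjusted p = 0.628, limma). Its high values were in WT 1 and 2, and the other WT libraries lie within the range of the cKO. Hist1h2bc stood at 5.25, 8.32, 3.96 and 4.81 against 4.11, 3.97, 2.66 and 3.13 FPKM (log2 -0.53, SE 0.18, adjusted p = 0.628, limma), with WT 2 the highest and the groups overlapping. Without WT 1 and WT 2, a choice made after seeing the data, the log2 values were -0.09 and -0.28 and 0 of the 6 genes had an unadjusted p under 0.05 (limma). With cKO 1 left out as well they were -0.28 and -0.35, and 2 of the 6 had one.

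The other 4 genes had log2 values of at most 0.14 in size. Hist3h2ba was at 43.0 ± 5.55 FPKM in WT and 44.8 ± 7.69 FPKM in cKO (n = 4 each), log2 0.05 with SE 0.12. Its sign turned without WT 4 (-0.02) or cKO 1 (-0.05). Hist3h2a was at 13.18 ± 1.006 FPKM in WT and 14.6 ± 1.285 FPKM in cKO (log2 0.14, SE 0.09). Its gap is above either SD, and the groups overlap. Hist1h4i had a log2 value of 0.11 (SE 0.16). Hist2h2be was at 3.04 ± 0.47 and 3.03 ± 0.35 FPKM. The summed level of 28 genes of S phase and proliferation was 224 to 238 FPKM in WT, 272 FPKM in cKO 1 and 202 to 207 FPKM in cKO 2 to 4. Among the cKO libraries the histone sum was also highest in cKO 1, at 89.5 FPKM, and lowest in cKO 3, at 61.5 FPKM. In WT it was highest in WT 2, at 91.9 FPKM, with a proliferation sum of 235 FPKM. WT 1 had a histone sum of 74.6 FPKM and the highest proliferation sum of the WT, 238 FPKM. The part of proliferation in the histone sum was not tested. In bulk tissue fewer cells of a type and less RNA per cell cannot be told apart.

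**Figure D3:**
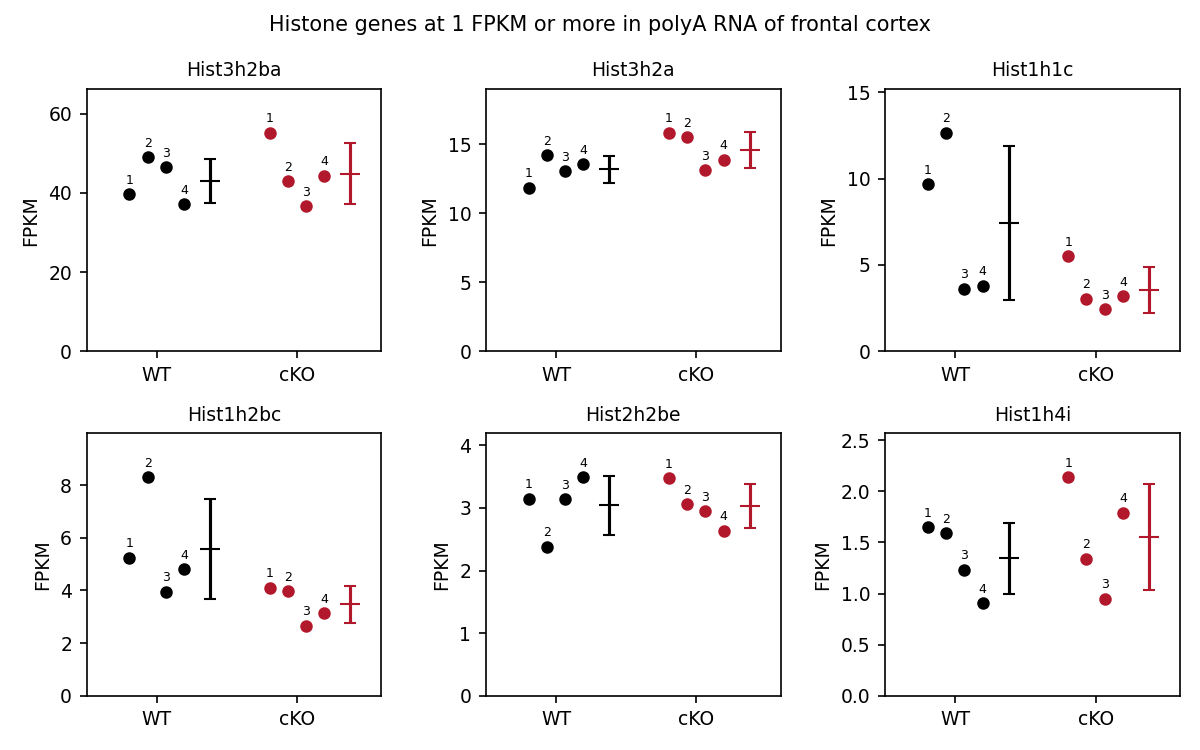
FPKM of the 6 histone genes tested in frontal cortex (y axes from 0) in WT (black) and cKO (red); numbered points are libraries, and the bar beside them gives mean and SD of 4. WT 1 and 2 stand above the rest for Hist1h1c, at 9.67 and 12.7 FPKM, and in all panels the groups overlap.

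In the pull-down, H1 genes were higher in the AUTS2 RIP than in both controls, and H2A genes in part. H2B genes were called higher mainly against input, and 7 of 13 H4 genes were lower than input, where 16.6% of all genes were. Against IgG, which asks what the antibody brings down beyond a control antibody, 14 of 60 genes tested were higher and 0 lower (limma), where 23.4% of all 14570 genes were called, 13.7% higher and 9.69% lower. The share of histone genes called was 23.3%, at the background for both directions together and above the 13.7% for higher calls. At an unadjusted p under 0.05 (limma) there were 29, where 38.1% of all genes were. The median log2 fold change was 0.45 for the histone genes and 0.02 for all genes. Against input, 19 of 61 were higher and 12 lower, where 35.9% of all 14458 genes were called, 19.3% higher and 16.6% lower, with medians of 0.37 and -0.02, and 35 had an unadjusted p under 0.05 where 47.1% of all genes had (limma). Both comparisons use the same RIP libraries, so they are not independent of each other. The genes tested passed a filter at a mean of 1 FPKM, and 8 and 7 of the 68 did not.

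The count against IgG depended on single libraries. It was 14 with all, and 0 without IgG A, 5 without RIP A and 8 without RIP B, in fits where the lone library left is assumed to vary like the other group. Without IgG A the loss of calls was not particular to histone genes but took in the whole table (limma). The median log2 value was then 0.38 for the histone genes and 0.02 for all genes. Against input the higher genes numbered 7 and 9 without RIP A or RIP B, and the 12 lower ones 6, 4, 2 and 3 without input A, input B, RIP A or RIP B. The class medians without IgG A were 0.77, 0.57, 0.51, -0.19 and -0.39 for H1, H2A, H2B, H3 and H4.

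Linker histone genes showed the clearest pattern, with 5 of 5 tested H1 genes higher in both comparisons. Hist1h1e stood at 1337 and 1205 FPKM in RIP A and B and at 541 and 599 FPKM in IgG A and B. Both RIP values are above both IgG values (log2 1.16, SE 0.10, adjusted p = 0.00266, limma). In the table with input it stood at 1362 and 1223 against 314 and 312 FPKM (log2 2.04, SE 0.08, adjusted p = 0.000677, limma). It took 38.9% and 37.2% of all histone FPKM in RIP, 28.6% and 29.1% in IgG and 17.0% and 16.9% in input. By level it ranked 4 and 6 among all genes in RIP A and B, 21 and 15 in IgG and 65 and 67 in input.

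The other H1 genes followed at lower levels. Hist1h1d, at 278 and 268 FPKM in RIP, was at 149 and 159 FPKM in IgG (log2 0.82, SE 0.09) and, in the other table, at 283 and 272 against 86.6 and 101 FPKM in input (log2 1.56, SE 0.10). Its annotated model is 7425 bases long, most of it past the stem-loop. Hist1h1a, whose model holds no exact motif, was at 60.9 and 64.5 against 35.4 and 25.9 FPKM in IgG (log2 1.03, SE 0.17). Against input its log2 value was 1.41 (SE 0.18). Hist1h1b and Hist1h1c had log2 values of 0.59 (SE 0.12) and 0.67 (SE 0.09) against IgG, and 1.34 (SE 0.11) and 1.03 (SE 0.11) against input. The adjusted p of these 4 genes was at most 0.0179 against IgG and 0.00337 against input (limma). Hist1h1a and Hist1h1b share no coding window with another gene. The testis gene Hist1h1t was under 1 FPKM throughout and not tested. Against input 5 of 5 H1 genes passed in each of the 14 alternative fits, while against IgG 3 passed with quantile normalization, 3 without the trend and robust settings, 2 without RIP A, 3 without RIP B and 0 without IgG A.

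**Figure D4:**
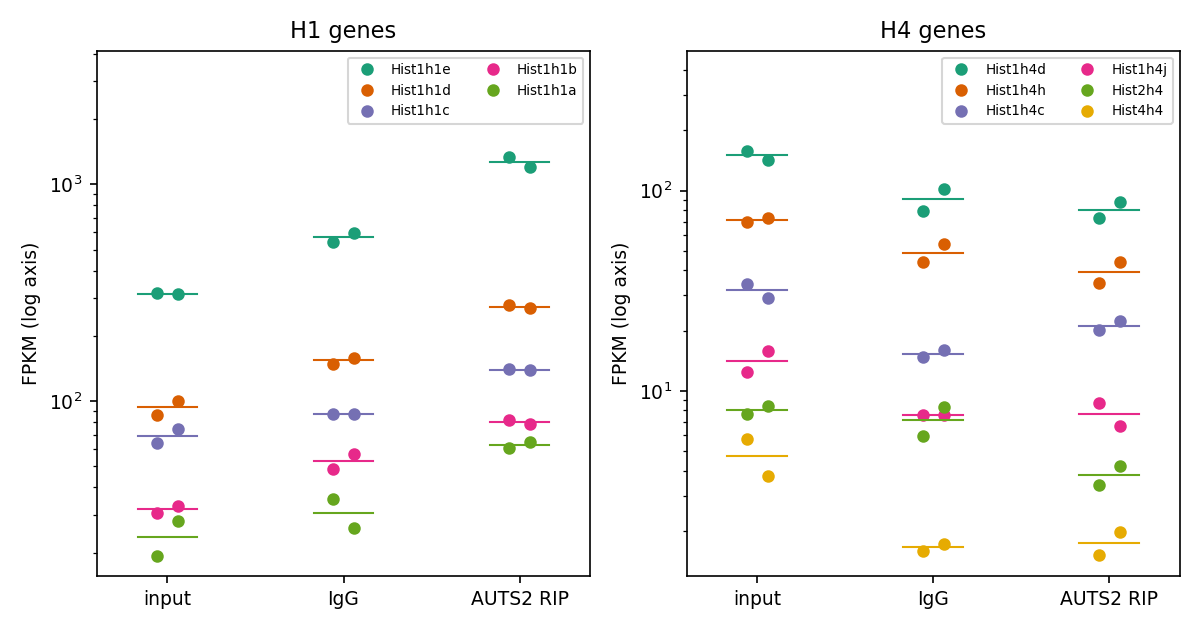
FPKM (y axes, log scale) of 5 H1 genes (left) and 6 H4 genes (right) in input, IgG and AUTS2 RIP; points are libraries A and B and lines their means, with input from its own table and IgG and RIP from the table they share. The H1 genes are highest in RIP, Hist1h1e at 1337 and 1205 FPKM, while Hist1h4d is highest in input, at 158 and 143 FPKM. The H4 genes drawn are 6 of the 7 called lower against input, and the 6 not called are left out.

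Of the H2A genes 6 of 16 were higher against IgG (median log2 0.70) and 5 of 17 against input (median 0.62), and 0 were lower. These are shares of 37.5% and 29.4%, beside 13.7% and 19.3% of all genes called higher and 23.4% and 35.9% called in either direction. The 6 became 0 without IgG A and 3 without RIP A, and the 5 became 1, 2 and 3 without RIP A, RIP B or input B. Hist1h2af was at 174 and 160 FPKM in RIP against 91.0 and 74.4 FPKM in IgG (log2 1.01, SE 0.13, adjusted p = 0.00504, limma). Hist1h2ak was at 194 and 167 against 84.2 and 96.1 FPKM, and in the other table at 198 and 169 against 92.1 and 89.7 FPKM in input (log2 1.00, SE 0.11, adjusted p = 0.00195, limma). For both genes the RIP libraries are above all control libraries. Hist2h2ac, whose core occurs in no other gene of the 68, was at 138 and 133 against 81.1 and 83.0 FPKM in IgG (log2 0.71, adjusted p = 0.00579, limma). In input it was at 109 and 74.7 FPKM against 140 and 135 FPKM in RIP. Its log2 value of 0.60 passed (adjusted p = 0.0448, limma). Hist1h2ac was at 71.6 and 71.1 against 32.7 and 37.8 FPKM in IgG (log2 1.00, SE 0.12), and at 72.9 and 72.2 against 48.7 and 37.8 FPKM in input (log2 0.74, adjusted p = 0.0113, limma). The RIP libraries differed more for Hist1h2an, at 67.8 and 43.0 against 29.7 and 28.6 FPKM in IgG (log2 0.87, SE 0.21, adjusted p = 0.0328, limma). Hist1h2ab had a log2 value of 0.64 against IgG, and Hist2h2ab of 0.60 against input. All these H2A genes overlap a gene on the opposite strand, so reads of both are together if strand was not used.

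H2B genes were called mainly against input, with 9 higher and 1 lower of 16 (median log2 0.85), and 3 higher of 17 against IgG (median 0.46). The shares called were 62.5% and 17.6%, beside 35.9% and 23.4% of all genes, with 13.7% of all genes higher against IgG. The 9 became 1 without RIP A and 2 without RIP B, and the 3 became 0 with any 1 library left out, with quantile normalization or without the trend and robust settings. Hist1h2bp stood at 10.4 and 10.8 FPKM in RIP against 1.82 and 2.69 FPKM in input (log2 1.84, SE 0.23, adjusted p = 0.003, limma). In IgG it was at 12.7 and 5.79 FPKM, a range that holds the RIP values of 10.2 and 10.6 FPKM in that table. Hist1h2bj had the highest log2 value against input, 2.14 (SE 0.57, adjusted p = 0.0349, limma), from 2.44 and 10.9 FPKM in input to 31.1 and 23.7 FPKM in RIP. With the trio as a replicate block its adjusted p was 0.0834 (limma). Hist1h2br was at 37.3 and 34.2 against 13.4 and 17.0 FPKM in input (log2 1.19), and at 36.7 and 33.7 against 23.8 and 22.4 FPKM in IgG (log2 0.58, adjusted p = 0.0229, limma). Hist1h2bf and Hist1h2bl, at 15.9 and 6.24 and at 2.97 and 5.66 FPKM in input, had log2 values of 1.57 (SE 0.39) and 1.26 (SE 0.29). The other higher genes against input were Hist1h2be, Hist1h2bc, Hist1h2bg and Hist1h2bn, with log2 values of 0.88, 0.86, 0.80 and 0.65. Hist3h2ba, the leading gene in polyA RNA, passed against IgG (51.2 and 54.7 against 34.9 and 31.5 FPKM, log2 0.66, adjusted p = 0.0134, limma). Against input its log2 value was 0.38 (adjusted p = 0.0585, and 0.0419 with the block, limma). The lower gene was Hist2h2bb, at 70.5 and 80.9 FPKM in RIP against 119 and 108 FPKM in input (log2 -0.57, adjusted p = 0.0123, limma). With length and GC trends removed no H2B gene was called lower.

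H3 genes included 0 called against IgG out of 10 (limma), with a median log2 value of -0.07. Of these 10, 4 had an unadjusted p under 0.05 (limma), beside 38.1% of all genes. Against input 4 of 10 were lower and 0 higher, with a median of -0.39. The share called there was 40.0%, beside 35.9% of all genes called and 16.6% called lower. The 4 became 1, 0 and 1 without RIP A, RIP B or input B. Hist1h3c fell from 9.25 and 10.3 FPKM in input to 4.00 and 2.55 FPKM in RIP (log2 -1.35, SE 0.24, adjusted p = 0.00919, limma). Hist1h3a, Hist1h3b and Hist1h3d had log2 values of -1.16, -0.90 and -0.82, and in each both RIP values were below both input values. In IgG these 4 genes were at 1.33 to 14.5 FPKM. Hist1h3e was at 15.5 and 15.2 FPKM in RIP and 8.11 and 12.04 FPKM in input, above it in both trios without passing (log2 0.58, adjusted p = 0.0831, limma). Against IgG, Hist1h3h was at 1.17 and 0 against 4.73 and 2.19 FPKM (log2 -1.54, adjusted p = 0.0728, and 0.0226 with the trio as a block, limma). This was the lowest log2 value of the 10 genes, which ran up to 1.12, and 4 of the 10 were positive. Hist1h3i and Hist1h3e had means of 4.31 and 7.70 FPKM in IgG and 10.6 and 15.1 FPKM in RIP, without passing. Hist2h3c1 was listed at 0 in all pull-down libraries.

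H4 genes were lower against input for 7 of 13 and higher for 0, with a median log2 value of -0.83. The share called was 53.8%, beside 35.9% of all genes called and 16.6% called lower. The 7 became 1 without RIP A, 2 without RIP B and 3 without either input library. Hist1h4d, the leading H4 gene, was at 74.0 and 88.7 FPKM in RIP against 158 and 143 FPKM in input (log2 -0.88, SE 0.12, adjusted p = 0.00403, limma). Hist1h4h was at 35.1 and 44.7 against 69.3 and 73.0 FPKM (log2 -0.83, SE 0.14, adjusted p = 0.00771, limma). The other 5 were Hist4h4, Hist1h4f, Hist2h4, Hist1h4j and Hist1h4c, with log2 values from -1.04 to -0.54. Against IgG 0 of 12 H4 genes passed (limma), with a median of -0.08. Of these 12, 3 had an unadjusted p under 0.05 (limma), beside 38.1% of all genes. Hist1h4d was at 72.6 and 87.3 FPKM in RIP and 79.2 and 102 FPKM in IgG there, overlapping. The H3 and H4 medians against IgG turned to 0.04 and 0.05 with length and GC trends removed. Against input they were -0.32 and -0.51 with those trends removed, and then 2 H3 and 3 H4 genes were lower and 1 H3 gene higher. Some marker sums of other cells also differed in the input comparison, where 35.9% of all genes were called. The 7 genes of red blood cells summed to 66.98 to 77.3 FPKM in input and 19.2 to 39.4 FPKM in RIP. Of these, 4 were tested and 2 called lower. The 7 of interneurons summed to 135 to 141 and 182 to 189 FPKM, with 2 called higher. The 10 of cortical neurons overlapped, at 997 to 1002 and 991 to 1038 FPKM, with 2 called higher and 3 lower. Sums of microglia and endothelium genes were lower in RIP. The sum of 10 genes of radial glia went from 399 to 442 FPKM down to 286 to 303 FPKM with 1 of them called, Fabp7 (means 207 and 62.8 FPKM), while the median gene of the list was at 16.8 and 20.3 FPKM. The part of these cells in the H3 and H4 values was not tested. The tested histone genes have a median length of 531 bases and 58.6% GC against 2395 bases and 49.9% over all genes tested against IgG.

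**Figure D5:**
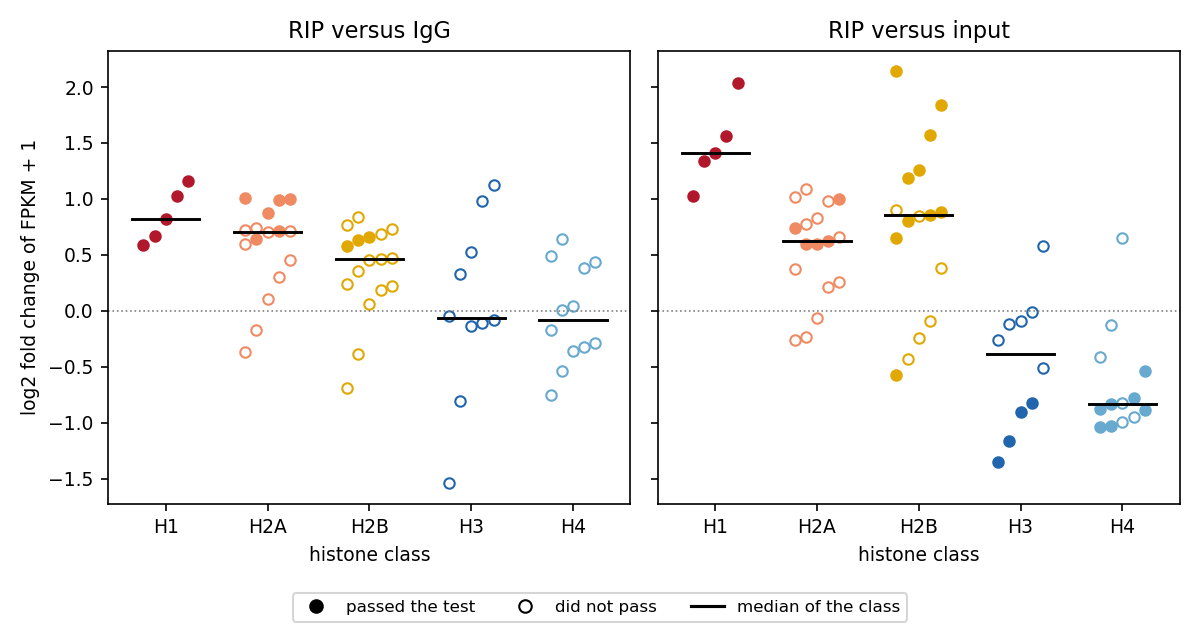
Log2 fold change of FPKM + 1 (y axis) of each tested histone gene by class (x axis), RIP against IgG left and RIP against input right; filled points passed the test, open ones did not, and lines are class medians. The 5 H1 genes pass in both panels, at 0.59 to 1.16 and 1.03 to 2.04, while H4 has a median of -0.08 left and -0.83 right.

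Called genes occurred among models with each kind of end. Against IgG 2 of 17 tested genes that end within 60 bases of the stem-loop match were higher, 6 of 20 that run further past it, 5 of 17 that stop at or near the stop codon and 1 of 6 without a match. These are shares of 11.8%, 30.0%, 29.4% and 16.7%, beside 13.7% of all genes higher. The medians were 0.47, 0.49, 0.58 and 0.08 on the log2 scale. Against input the same kinds had 3 higher and 4 lower of 19, 6 higher and 7 lower of 20, 7 higher and 1 lower of 15, and 3 higher of 7. The shares called there were 36.8%, 65.0%, 53.3% and 42.9%, beside 35.9% of all genes. The kinds hold different classes, and no test between them was made.

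The IgG and input libraries are in separate tables, and their values are given side by side without a test. The IgG mean was above the input mean for 6 of 6 H1 genes, and for 4 of them both IgG libraries were above both input libraries. Hist1h1e was at 541 and 599 FPKM in IgG and 314 and 312 FPKM in input. For H2B this held for 13 of 17 genes, for H2A for 6 of 20, for H3 for 1 of 12 and for H4 for 2 of 13. Both IgG libraries were below both input libraries for 6 H3 and 5 H4 genes. Summed over the class, H4 was at 349 and 355 FPKM in input, 195 and 249 in IgG and 179 and 211 in RIP. H1 was at 515 and 548, 862 and 928, and 1898 and 1755 FPKM in the same order.

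Genes that act on histone mRNA were compared in the same fits. Of 22 tested genes of histone mRNA processing, 0 passed in the cKO, 4 were higher and 0 lower against IgG, and 7 were higher and 3 lower against input. These are shares of 18.2% and 45.5%, beside the 23.4% and 35.9% called over all genes. Slbp, whose protein binds the stem-loop, was at 9.51 ± 1.65 FPKM in IgG and 11.7 ± 1.85 FPKM in RIP (n = 2 each, log2 0.27, adjusted p = 0.384, limma). In the other table it was higher in RIP, at 11.9 ± 1.86 against 6.25 ± 1.75 FPKM in input (log2 0.84, adjusted p = 0.0398, limma). Srrt, which links the cap-binding complex to RNA processing, was higher against IgG at 116 ± 8.35 against 57.9 ± 2.37 FPKM (log2 0.99, adjusted p = 0.00368, limma). Upf1, a helicase of RNA decay that also acts on histone mRNA, was also higher (log2 0.85, adjusted p = 0.00703, limma), as was Gon4l, at 32.4 ± 0.61 against 12.4 ± 1.48 FPKM (log2 1.33). The U7 RNA gene Rnu7 was listed at 0 in every library.

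Replication-independent variants, which are also made outside S phase, mostly from polyadenylated mRNAs, gave 1 higher and 1 lower of 11 against IgG. Against input 4 were higher and 4 lower. The shares called were 18.2% and 72.7%, beside 23.4% and 35.9% over all genes. The higher gene against IgG was H2afy2 and the lower one H3f3b. H2afj was among the 4 higher against input, and the genes given next are among the 4 lower. H3f3a, which encodes H3.3, was at 51.4 ± 6.10 FPKM in input and 14.2 ± 1.48 FPKM in RIP (log2 -1.79, adjusted p = 0.00107, limma). H3f3b, encoding the same protein, was at 147 ± 0.131 and 107 ± 1.83 FPKM (log2 -0.46, adjusted p = 0.0105, limma), and H2afz, an H2A variant, at 20.5 ± 3.92 and 12.6 ± 0.725 FPKM (log2 -0.65, adjusted p = 0.0363, limma). In frontal cortex these 3 were at 219 ± 11.3, 451 ± 115 and 85.4 ± 3.56 FPKM in WT, and 0 of 11 variants passed in the cKO.

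Of the genes of S phase and proliferation, 6 of 26 were higher and 0 lower against IgG, and 5 of 25 were higher and 1 lower against input. The shares called, 23.1% and 24.0%, lay at and under those of all genes, 23.4% and 35.9%. Mki67, a marker of dividing cells, was at 44.4 ± 1.70 against 25.3 ± 0.99 FPKM in IgG (log2 0.79, adjusted p = 0.00772, limma). The list summed to 200 and 220 FPKM in the RIP and 133 and 165 FPKM in the IgG libraries, and its part in the values of the H1 genes was not tested. Among histone chaperones, which carry histones to DNA, 7 of 17 were higher against IgG and 9 higher and 1 lower against input, 41.2% and 58.8% called. Atrx and Cabin1 were at means of 321 and 84.8 FPKM in RIP and 122 and 34.7 FPKM in IgG (log2 1.39 and 1.27).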

How the data were processed

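RNA levels of 14 mouse cortex libraries were read from 3 tables of FPKM per transcript, as deposited. Alignment and quantification used STAR 2.5, SAMtools and Cuffdiff 2.2.1 on GRCm38.p4 (mm10), tools listed in the submitters' processing notes. Transcripts are those of GENCODE vM14, per the file headers. Per the labels' protocols the frontal cortex libraries came from a TruSeq kit and the pull-down libraries from a Magna-RIP kit and a SMARTer stranded kit. For strand settings, reads that fit several places and library scaling, nothing is given in the sources used here. The RIP libraries differ by a factor of 1.018 (A) and 1.015 (B) between the 2 tables that hold them, so tests stay within a table. Library cKO 4 was matched to its column by library number.

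Transcripts were summed per symbol. Those averaging 1 FPKM or more within a table entered limma 3.58.1 (R 4.3.3) as log2(FPKM + 1), with trend and robust empirical Bayes, two-sided, adjusted by Benjamini-Hochberg over all genes tested. Fold changes on this scale understate the change of low genes. The fits were also run on simulated data with planted changes and independent noise. Such data hold no reads shared between copies and no deviating library, so they do not test the effect of either. Python 3.11.15, pandas 2.3.3, numpy 2.4.6 and matplotlib 3.10.9 made tables and figures. Sequences, ends and overlaps are from GENCODE vM21 transcripts. The labels call the libraries biological replicates. The members, lists and tests were chosen with earlier results of these data known. Named are the 3 highest members of each class and table, called members up to 10 per direction, up to 3 genes of each list with the smallest p, and Slbp, Auts2, H2afz, H3f3a and H3f3b. Others, such as Hist1h1t or Hist3h2bb-ps, were named after their values were seen.

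The trios are matched by the study's design. The deviations of libraries with the same letter from their group means correlated at r = 0.0088 (RIP and IgG) and 0.012 (RIP and input). Other settings tried were pseudocounts of 0.1 and 5 FPKM, a filter at 5 FPKM or none, median-ratio and quantile scaling, no trend and not robust, a replicate block, removal of length and GC trends with and without the block, each library left out, and for summed levels coding transcripts alone or without the 10 highest genes.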

Additional observations from a re-analysis of the deposited data

Results flagged for a closer look

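In groups of 4 libraries a value was singled out when its gap to the nearest other library took up more of the group's range than Dixon's 95% critical value allows. Of 34 groups examined 3 were, where chance gives about 1 in 20. The summed level of the H3 genes was 0.365 FPKM in cKO 4, with the nearest cKO library at 0.577 FPKM. H2afz was at 120 FPKM in cKO 1 (nearest 88.3 FPKM) and H3f3a at 283 FPKM in cKO 1 (nearest 213 FPKM). cKO 1 also had the highest sum of the proliferation genes, 272 FPKM against 202 to 207 FPKM in the other cKO libraries.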

How the results depend on the processing

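Over the alternatives run, 0 histone genes were called in the cKO in 20 fits. Against IgG the 14 higher genes became 7 with quantile normalization and 6 without trend and robust settings, and 0 to 12 with a library left out. The replicate block added 1 lower gene, Hist1h3h. Against input, with a library left out the higher genes numbered 7 to 19 and the lower ones 2 to 6. The 12 lower genes became 6 with no filter, 6 without trend and robust settings, 5 with length and GC trends removed and 6 with that and the replicate block. The replicate block in the trios gave 15 higher genes against IgG and 20 higher and 14 lower against input. It moved the calls of Hist1h2bk against IgG (higher, adjusted p = 0.0484, limma) and of Hist1h2ab, Hist1h2bb and Hist1h4n against input (adjusted p = 0.0148, 0.0382 and 0.0483, limma), beside those given above, and no other histone call. In frontal cortex the deviations of same-numbered libraries from their group means correlated at 0.176, 0.0173, -0.0394 and 0.0659. The labels number the animals without tying same-numbered ones together. With the number as a block 0 of 6 genes passed.

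Of the single-gene values in the IgG, input and cKO comparisons, 8, 0 and 13 changed sign, each gene counted once per alternative. Hist2h2be in the cKO turned to 0.0015 with a pseudocount of 0.1 FPKM, 0.00073 with median-ratio and 0.0042 with quantile scaling, and -0.08 to 0.05 with a library left out. Hist3h2ba in the cKO turned to -0.02 with length and GC trends removed, with or without the block, to -0.01 without cKO 1, WT 1 and WT 2 (chosen after seeing the data), and ran from -0.05 to 0.14 with a library left out. Against IgG Hist1h4d ran from -0.35 to 0.01, Hist2h2bb from -0.15 to 0.27 (-0.27 with quantile normalization) and Hist2h3b from -0.30 to 0.13 with a library left out. Hist2h3b was at 0.11 with length and GC trends removed, with or without the block.

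The share of summed FPKM taken by histone genes was 0.0263% in WT, 1.53% in RIP, 1.07% in IgG and 0.943% in input over protein-coding transcripts alone. Without the 10 highest genes of each library it was 0.718%, 0.767% and 0.684% in RIP, IgG and input, and Hist1h1e is among those taken out in RIP alone. Median-ratio rescaling put the summed input level at 1826 FPKM. The cause of these changes was not tested, save where the construction of a setting names it. With no counts the depth behind values near 0 is unknown.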
